A study of Mus musculus with 11 samples.

Results

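*Ovgp1*, the gene of oviductal glycoprotein 1, was followed as 1 gene of the 18305 in the deposited table of 27 mouse libraries, and was chosen by its name. It took 6.80 to 10.5% of all reads in oviduct tissue and 1.26 to 1.95% in wild-type oviductal organoids. In organoids grown from Cas9-GFP mice, in the mutant clones made from them, and in the tumors and tumor-derived organoids that followed, its level lay between 0 and 95.6 counts-per-million (CPM).

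Ovgp1 is a large secreted glycoprotein with a mucin-like tail and belongs to the chitinase-like proteins, which carry the fold of chitinases but mostly lack the enzyme activity. Secretory (non-ciliated) cells of the oviduct epithelium release it into the lumen, where it coats the zona pellucida of eggs and early embryos. Its expression in the oviduct is known to depend on estrogen, and it is widely used as a marker of oviductal secretory cells, next to the transcription factor Pax8.

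The study grew organoids, which are three-dimensional epithelial cultures, from the oviduct and from the ovarian surface epithelium (OSE) to model high-grade serous ovarian cancer. Wild-type C57BL/6 mice gave oviduct tissue (n = 3), OSE tissue (n = 3), oviductal organoids (n = 3) and OSE organoids (n = 2). Cas9-GFP oviductal organoids (n = 3) came from mice that carry a *Cas9-EGFP* transgene driven by the ubiquitous CAG promoter at *ROSA26*, and received no guide RNA. TBP clones (n = 3) were made from Cas9-GFP oviductal organoids by guide RNA editing that included *Trp53* and *Brca1*, selected with Nutlin-3a and each expanded from 1 clone (*Brca1* mutants were heterozygous in this study), so that Cas9-GFP is shared by all later groups. TBP tumors (n = 6) grew from such clones in immunodeficient NSG mice, and hold the mouse cells of their host. Tumor-derived organoids (n = 4, labelled T1-mes, T2-epi, T3-mes and T4-epi) were regrown from tumors in the presence of Nutlin-3a. Donor and host mice were females aged 8 to 12 weeks. Organoids of both origins were kept, as a rule, in a medium that holds WNT and estrogen, and the medium of each library is not given in the sources used here. The study describes its tissue samples, organoid lines and tumors as independent of each other, and each wild-type organoid line pooled the organs of at least 6 mice. A further OSE organoid line was left out by the study as contaminated. Tumors can share a clone or a host, since mice were injected with the same clone at 2 places, and T1-mes and T2-epi came from neighbouring tumors of 1 clone. Where libraries share a source in this way, the p-values measure only the spread between libraries, which may be technical. The same holds for the TBP clones, whose independence is not stated for these libraries. The study made 2 independent clones per set of mutations, so that some of the 3 TBP clone libraries may share a clone.

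Totals per library ran from 82239 to 4531767 reads, and the lowest, TBP clone 1, has the widest limits. The labelled tissues carried their markers. In oviduct against OSE tissue, 7 of 8 tested secretory genes and 9 of 9 ciliated genes rose, beside 26.9% of 8787 genes called higher, and 6 of 7 OSE and mesothelial genes fell, beside 24.3% called lower. OSE tissue also carried summed granulosa markers of 3797 to 4704 and steroidogenic markers of 6245 to 7623 CPM, against 30.0 to 107 and 41.6 to 229 in oviduct tissue. Smooth muscle markers summed to 2298 to 3719 CPM in oviduct tissue, and to 157 to 229 in OSE tissue. The part of these other cell types in the differences between tissues was not tested.

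*Ovgp1* (ENSMUSG00000074340) lies on the plus strand of chromosome 3, from 105973711 to 105987423 (GRCm38, GENCODE). Its only protein-coding transcript has 11 exons, 2616 bases and 721 codons. The stop codon ends at 105987078, inside the last exon, which is followed by 345 bases of 3′ UTR. The libraries tag the 3′ ends of transcripts, so that most *Ovgp1* reads come from this end of the gene. A non-coding transcript on the same strand, Gm42890, overlaps the gene up to 105984600, before the last exon starts at 105986069.

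The bases just upstream of the annotated start are shown because *Ovgp1* is known as an estrogen-dependent gene and estrogen receptor binds the half-site GGTCA and the palindrome of GGTCA, 3 bases and its reverse complement TGACC. The RefSeq stretch chr3:105973552-105973710 (GRCm38.p6, plus strand, 159 bases) reads as follows, with GGTCA and an inverted near-match to it in capitals.
Ovgp1 upstream: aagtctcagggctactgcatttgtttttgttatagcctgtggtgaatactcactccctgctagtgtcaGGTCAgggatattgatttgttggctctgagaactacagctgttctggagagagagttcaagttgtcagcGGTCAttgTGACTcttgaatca
GGTCA stands on the plus strand at 105973620 to 105973624 and at 105973689 to 105973693, and not on the minus strand. Of 32851 RefSeq promoters of 300 bases, 40.48% hold it on either strand. The second copy begins a stretch from 105973689 to 105973701 that differs from the whole palindrome by 1 base, ending 101 bases before the RefSeq start and 10 bases before the GENCODE start. The near-match was noticed after the sequence was seen. The palindrome with at most 1 mismatch occurs in 0.8767% of the promoters and without mismatch in 0.07001%, not in *Ovgp1*. TATAAA (13.62% of promoters), CCAAT (37.41%) and GGGCGG (35.66%) were not found on either strand of the *Ovgp1* window. These matches describe letters and not sites of binding.

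The 3 oviduct tissue libraries held 153476, 86789 and 59543 *Ovgp1* reads. They made up 9.83% (95% Clopper-Pearson interval 9.78 to 9.88), 10.5% (10.5 to 10.6) and 6.80% (6.75 to 6.85) of all reads. *Ovgp1* was the most counted gene in the first and second library and came after the mitochondrial *mt-Rnr2* in the third. The reads were not collapsed by molecular identifiers, so that the intervals cover counting error only. As CPM after trimmed-mean (TMM) scaling across all 27 libraries, the tissue level was 112140, 118971 and 74617, or 101909 ± 23881 (SD, n = 3).

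Wild-type oviductal organoids held 48107, 23514 and 22305 reads, or 22700, 20159 and 14809 CPM (19223 ± 4028, SD, n = 3). *Ovgp1* ranked 3rd, 4th and 3rd among all genes there. Each organoid library lay below each tissue library.

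The pair of OSE organoid lines differed widely. OSE organoids 1 had 25 reads (18.9 CPM) and OSE organoids 2 had 6401 reads (3274 CPM), where *Ovgp1* ranked 27th among all genes. OSE tissue lay between them, with 140, 71 and 124 reads, or 119, 83.3 and 64.8 CPM (89.1 ± 27.7, SD, n = 3).

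Cas9-GFP oviductal organoids had 82, 55 and 62 reads, or 77.3, 95.6 and 66.4 CPM (79.7 ± 14.7, SD, n = 3), a level that overlapped that of OSE tissue. TBP clones had 0, 129 and 221 reads, or 0, 69.0 and 49.3 CPM. In clone 1, with 0 of 82239 reads, the floor of 3 counts stands at 34.1 CPM, below the levels of both other clones. Before scaling, its 95% interval reaches up to 44.9 CPM and overlaps that of clone 3 (42.5 to 55.6 CPM).

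Tumor-derived organoids had 29 reads in T1-mes, 17 in T2-epi, 37 in T3-mes and 73 in T4-epi, or 13.0, 7.87, 17.4 and 34.6 CPM (18.2 ± 11.6, SD, n = 4). The 6 tumors had 19, 8, 62, 10, 26 and 7 reads, with a lowest level of 4.27, a median of 9.02 and a highest level of 20.9 CPM (tumor 3). Reads were present in all 10 of these libraries, at a level where the count itself limits the precision: the 7 reads of tumor 6 have an interval of 1.85 to 9.46 CPM before scaling.

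Ordered by the median, the groups ran from oviduct tissue through oviductal organoids, OSE organoids, OSE tissue, Cas9-GFP organoids, TBP clones, epi and mes tumor-derived organoids to TBP tumors. Only the first and second steps were free of overlap. The lowest oviduct tissue (74617 CPM) lay above the highest oviductal organoid (22700 CPM), and the lowest oviductal organoid (14809 CPM) above the highest OSE organoid (3274 CPM). From OSE organoids downward, each group overlapped the next.

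**Figure D1:**
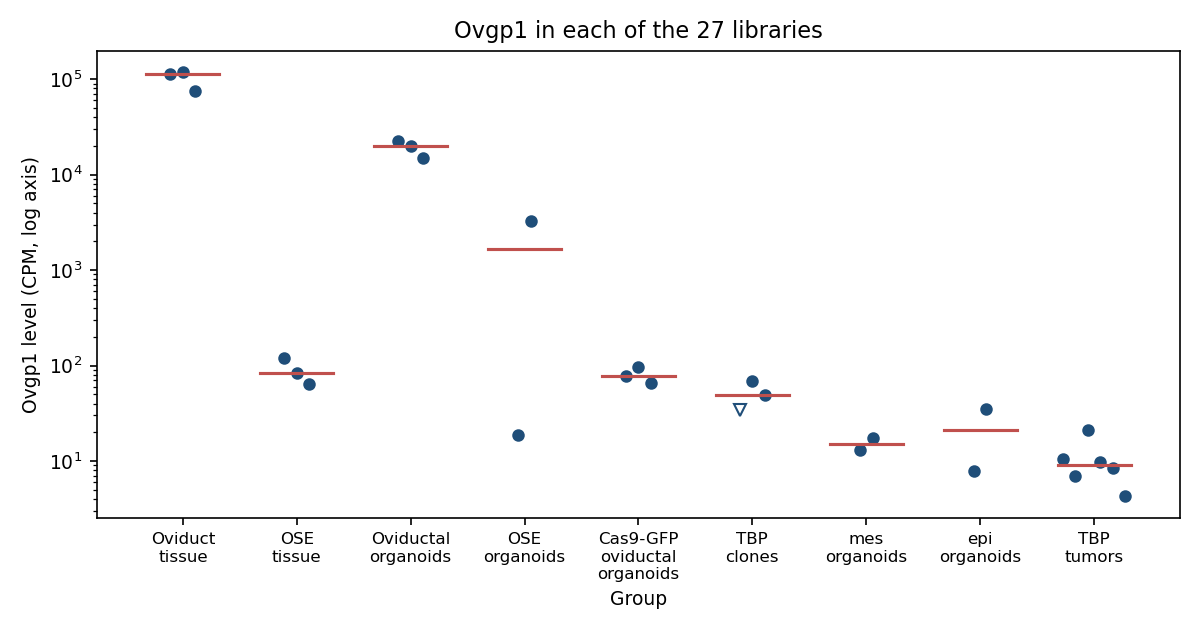
*Ovgp1* level in each library, in CPM after TMM scaling on a log axis, by group. Each point is 1 library and the red line is the median of the group. The open triangle is the floor of 3 counts in TBP clone 1, which had 0 reads. Oviduct tissue reaches 74617 to 118971 CPM, wild-type oviductal organoids 14809 to 22700 CPM and all Cas9-GFP libraries and their descendants stay at or below 95.6 CPM.

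In oviduct against OSE tissue, *Ovgp1* was 1141-fold higher (log2 difference 10.16, SE 0.42, adjusted p = 1.77e-10, edgeR quasi-likelihood test), at place 12 by fold among the genes that were higher. The shares of all genes called in this comparison are those given with the markers. *Pax8*, at 183, 158 and 197 CPM in oviduct and 0.852, 3.52 and 2.09 CPM in OSE tissue, rose by 6.38 (SE 0.29) on the log2 scale. Receptors of the steroid hormones that act on the oviduct moved both ways: *Esr1* (log2 4.43, SE 0.22) and *Pgr* (6.27, SE 0.62) rose and *Esr2* fell. Among 8 tested genes of the estrogen response, 5 rose and 2 fell. *Ltf* (lactoferrin) rose by 9.91 (SE 0.61) and *Greb1*, a cofactor of estrogen receptor, fell by 2.79 (SE 0.25) on the log2 scale, from 1075, 1612 and 1194 CPM in OSE tissue to 167, 132 and 269 CPM in oviduct. The list therefore did not move with *Ovgp1* as a whole.

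**Figure D2:**
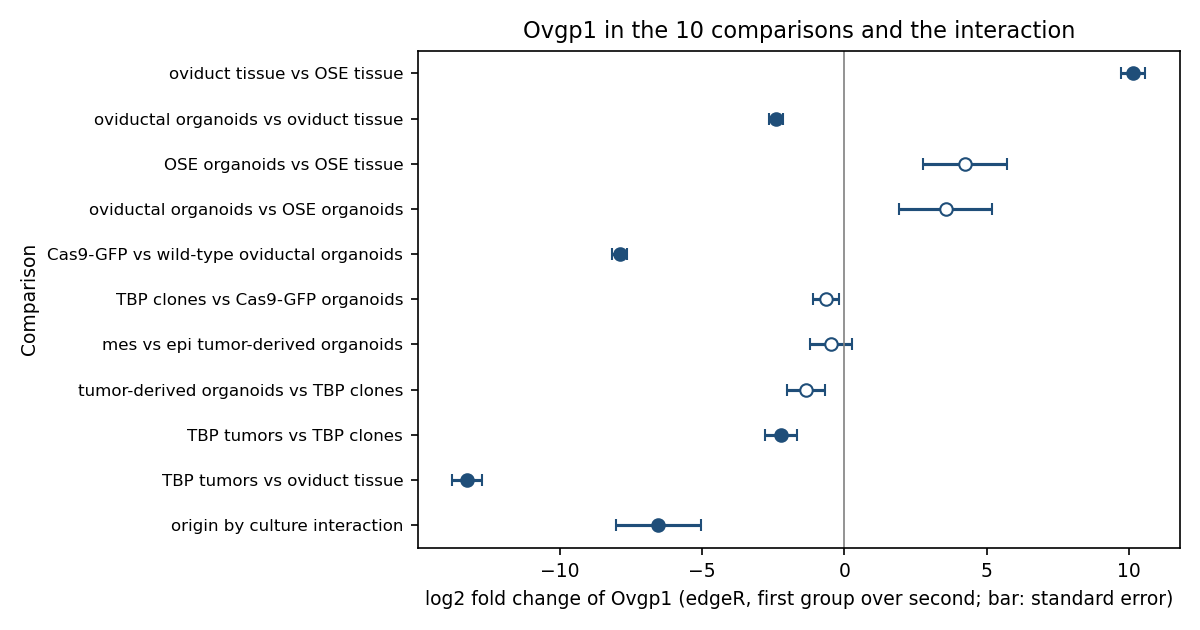
Log2 difference of *Ovgp1* in the 10 comparisons of groups and in the test of the origin difference between culture and tissue, with bars of 1 SE. Filled marks passed an adjusted p of 0.05 and open marks did not, and the values run from 10.16 (oviduct against OSE tissue) to -13.25 (tumors against oviduct tissue).

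Between oviduct tissue and wild-type oviductal organoids the level fell 5.26-fold (log2 -2.39, SE 0.25, adjusted p = 1.31e-05, edgeR), and of 9477 tested genes 24.2% were called lower and 18.7% higher. *Pax8*, with 172, 167 and 189 CPM in the organoids, did not pass the test (log2 -0.02, SE 0.17, adjusted p = 0.946). *Esr1* fell (log2 -1.15, SE 0.21, adjusted p = 0.000961), while *Pgr* (0.69, SE 0.42, adjusted p = 0.21) and *Greb1* (0.35, SE 0.31, adjusted p = 0.392) did not pass. *Ltf* rose (log2 2.48, SE 0.34, adjusted p = 0.000113), to 3688, 5490 and 4847 CPM. Of the secretory list 3 of 8 tested genes rose and 2 fell, and 9 of 9 ciliated genes fell. All 6 tested smooth muscle genes and all 6 tested fibroblast genes fell as well, with summed fibroblast markers of 3975 to 7208 CPM in tissue and 0 to 5.14 CPM in organoids. Summed epithelial markers were 1719 to 2217 CPM in tissue and 4875 to 6564 CPM in organoids. Per 1000 epithelial CPM, *Ovgp1* stood at 43399 to 53673 CPM in tissue and 2256 to 4656 CPM in organoids. This ratio was not tested. In bulk libraries such as these, fewer cells of a type and less RNA per cell cannot be told apart.

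OSE organoids against OSE tissue gave a log2 difference of 4.24 (SE 1.49, adjusted p = 0.0684), where 33.1% of 10232 genes were called in either direction. Without OSE organoids 2 the difference was -2.20, and without OSE organoids 1 it was 5.26. The lines also differed in other genes. OSE and mesothelial markers summed to 2428 CPM in line 1 and 601 CPM in line 2, most of it from the mesothelial surface protein *Msln*, at 2008 and 413 CPM. The OSE transcription factor *Gata4* stood at 110 and 8.18 CPM and the stem cell marker *Lgr5* at 42.3 and 0 CPM, while *Lhx9*, with 0 and 2.56 CPM, and *Upk1b*, with 0 and 4.09 CPM, had reads only in line 2. *Pax8* stood at 43.0 CPM in line 1 and 182 CPM in line 2, *Pgr* at 83.8 and 1085 CPM, and *Greb1* at 0 and 367 CPM. *Pigr*, the receptor that carries immunoglobulins across epithelia, ran the other way, with 1297 and 5.11 CPM. Line 2 thus had more *Ovgp1*, *Pax8*, *Pgr*, *Greb1*, *Lhx9* and *Upk1b*, and line 1 more *Msln*, *Gata4*, *Lgr5* and *Pigr*. The secretory list was divided between the lines. *Sox17* (938 and 474 reads in lines 1 and 2) and *Muc1* (560 and 29 reads) ran with *Pigr*. *Krt7* (3963 and 7095 reads) and *Wfdc2* (3625 and 8250 reads) ran with *Pax8*. The whole list summed to 8286 CPM in line 1 and 8362 CPM in line 2. Each line is 1 library, so that these differences carry no test.

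Oviductal against OSE organoids gave a log2 difference of 3.56 (SE 1.64, adjusted p = 0.478), with 0.0864% of 9257 genes called in either direction. Without OSE organoids 2 it was 10.001 (adjusted p = 8.79e-07) and without OSE organoids 1 it was 2.57 (adjusted p = 0.00101), each against a single remaining OSE organoid line that is assumed to vary like the oviductal ones. The difference between origins was smaller in organoids than in tissues (log2 difference of differences -6.54, SE 1.498, adjusted p = 0.0146), and 11.7% of 11458 genes were called in either direction. Without OSE organoids 2 this value was -0.073 (adjusted p = 0.9998).

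Cas9-GFP oviductal organoids had a 240-fold lower *Ovgp1* level than wild-type oviductal organoids (range within 1 SE 198 to 290, log2 -7.91, SE 0.28, adjusted p = 1.15e-08, edgeR, n = 3 against 3). The lowest wild-type library, at 14809 CPM, lay far above the highest Cas9-GFP library, at 95.6 CPM. Of 8323 genes tested, 13.0% were called higher and 13.3% lower, and *Ovgp1* was at place 13 by fold among the lower genes. Mouse line, transgene and culture cannot be told apart in this comparison, and no value bears on them singly. Neither group carried a marker sum of fibroblasts above 5.14 CPM. Myeloid markers summed to 27.9 to 45.2 CPM in Cas9-GFP and 0.944 to 5.31 CPM in wild-type organoids, with 2 of 2 tested genes higher (*Csf1r* and *Cd68*). The sum in Cas9-GFP organoids came from these genes alone. *Ptprc*, *Emr1*, *Itgam*, *Lyz2* and *Tyrobp*, the other genes of that list, had 0 reads in each Cas9-GFP library. The part of *Csf1r* and *Cd68* in the difference was not tested.

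*Pax8* did not pass the test in that comparison, at 172, 167 and 189 CPM in wild-type and 154, 141 and 181 CPM in Cas9-GFP organoids (log2 -0.13, SE 0.18, adjusted p = 0.633). Of the 7 tested genes of the secretory list of 10, 3 rose and 1 fell, with a median log2 change of 0.08 against 0.00 over all genes. *Pigr* rose most of them, from 2.83, 6.86 and 0 CPM to 320, 950 and 389 CPM (log2 7.51, SE 0.63, adjusted p = 1.11e-05). *Muc1*, a membrane mucin, rose by 0.93 (SE 0.23) and *Sox17*, a transcription factor of the oviduct epithelium, by 0.82 (SE 0.20) on the log2 scale. *Wfdc2*, the gene of the serum marker HE4, fell by 0.80 (SE 0.22). *Sox17* was called in 8 and *Wfdc2* in 7 of 12 alternatives. *Pax2*, a further gene of the secretory list, was not tested in this comparison. It had 39, 14 and 11 reads in wild-type organoids and 0 in each Cas9-GFP library. Its level was at least 3.35-fold lower there, with a floor of 3 counts per library. *Ovgp1* and *Pigr* thus moved in opposite directions between cultures with like *Pax8* levels. In oviduct tissue *Pigr* had only 12, 4 and 1 reads.

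Genes of the estrogen response were also divided. Of 7 tested, 2 rose and 1 fell. *Greb1* fell from 336, 237 and 145 CPM to 27.3, 33.0 and 5.36 CPM (log2 -3.49, SE 0.45, adjusted p = 0.000237), without overlap of the groups. The complement gene *C3* rose by 1.44 (SE 0.27) and *Lcn2* (lipocalin) by 0.95 (SE 0.23) on the log2 scale. *Esr1*, the estrogen receptor, had 69.8, 111 and 78.3 CPM in wild-type and 64.1, 92.1 and 31.1 CPM in Cas9-GFP organoids, and did not pass (log2 -0.47, SE 0.33, adjusted p = 0.319). *Pgr* (-1.07, SE 0.40, adjusted p = 0.0689) and *Ltf* (-0.26, SE 0.24, adjusted p = 0.464) did not pass either. In the fit over all 27 libraries no gene of the estrogen list or of the general epithelial list was called.

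Ciliated cells are the other main cell type of the oviduct epithelium, and 3 of their genes could be tested, of which all 3 fell. *Foxj1*, which drives the ciliated program, had 53.3, 63.4 and 47.1 CPM in wild-type and 15.1, 1.74 and 34.3 CPM in Cas9-GFP organoids (log2 -1.55, SE 0.47, adjusted p = 0.0309). *Tppp3* fell by 2.57 (SE 0.72). *Dynlrb2*, a dynein light chain, had 28.3, 111 and 78.3 CPM in wild-type organoids and 0 reads in the 3 Cas9-GFP libraries, at least 19.4-fold lower with the floor of 3 counts per library. Of the 10 general epithelial genes, 6 fell, with a median of -0.83.

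**Figure D3:**
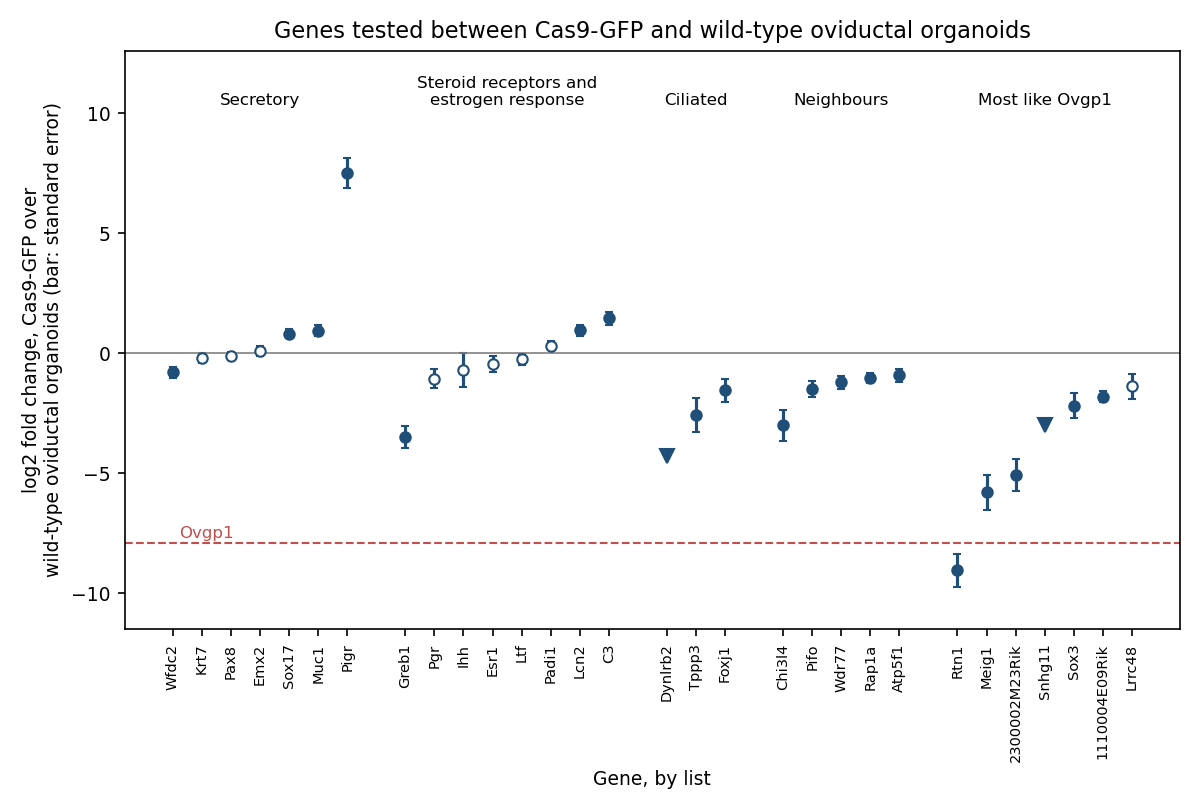
Log2 fold change of single genes in Cas9-GFP over wild-type oviductal organoids, grouped by gene list, with bars of 1 SE and a dashed line at the value of *Ovgp1* (-7.91). Filled points passed an adjusted p of 0.05 and open points did not. Downward triangles are tested genes without reads in any Cas9-GFP library, drawn at their bound. *Pax8* lies at -0.13 and *Pigr* at 7.51, and *Pax2*, which was not tested, is not drawn. The genes most like *Ovgp1* were chosen over all 27 libraries, these groups included, so that their fall is partly built into the choice.

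TBP clones against Cas9-GFP organoids gave a log2 difference of -0.65 for *Ovgp1* (SE 0.46, adjusted p = 0.703), with 0.817% of 7708 genes called in either direction. *Pax8*, with 284, 116 and 137 CPM in the clones, gave 0.07 (SE 0.39, adjusted p = 0.976). *Pgr* had 242, 426 and 92.1 CPM in Cas9-GFP organoids and 0, 32.1 and 0.447 CPM in the clones (log2 -4.18, SE 1.02, adjusted p = 0.0943), so that the groups did not overlap while the test was not passed. No gene of the secretory, epithelial or estrogen lists was called.

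Among the tumor-derived organoids, the mes lines against the epi lines gave a log2 difference of -0.47 (SE 0.73, adjusted p = 0.83, n = 2 against 2), with 1.13% of 9775 genes called. The highest and the lowest level were both in epi lines. Summed fibroblast markers were 3077 CPM in T1-mes and 7332 CPM in T3-mes against 30.6 CPM in T2-epi and 99.6 CPM in T4-epi, and 5 of 7 of these genes passed the test as higher in mes. T3-mes had 240 CPM of summed epithelial markers and 6.60 CPM of *Pax8* but kept 17.4 CPM of *Ovgp1*. All 4 lines against the clones gave a log2 difference of -1.36 (SE 0.66, adjusted p = 0.653). In that comparison edgeR called 0% of 9496 genes, with 754 at an unadjusted p under 0.05, and DESeq2 called 94 genes.

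In TBP tumors against TBP clones *Ovgp1* was 4.69-fold lower (log2 -2.23, SE 0.57, adjusted p = 0.013, edgeR), where 20.1% of 10473 genes were called higher and 11.7% lower. Without clone 2 the adjusted p was 0.0985 and without clone 3 it was 0.0505. The tumors held much more RNA of genes listed here as markers of other cell types. All 7 fibroblast genes and 6 of 7 myeloid genes rose. Fibroblast markers summed to 9653 to 58224 CPM in tumors and 0.447 to 22.7 CPM in clones, and myeloid markers to 405 to 1247 against 20.8 to 38.5 CPM. The same fibroblast markers summed to 3077 CPM in T1-mes and 7332 CPM in T3-mes. The study reports GFP-positive cells with mesenchymal features in some solid tumors. Whether host or tumor cells carried the fibroblast RNA of these tumors was not tested. *Pax8* fell (log2 -3.38, SE 0.95, adjusted p = 0.0195), with 0 CPM in tumors 2 and 4 and 39.4 CPM in tumor 3. *Slpi*, a secreted protease inhibitor, rose (log2 4.06, SE 1.02, adjusted p = 0.0113).

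The level of epithelial marker RNA differed strongly among the tumors. Summed epithelial markers were 2078, 268, 2757, 193, 325 and 388 CPM in tumors 1 to 6, against 2214, 3741 and 3628 CPM in the clones. Tumors 1 and 3, with the highest epithelial sums, also had the highest *Ovgp1* levels, at 10.5 and 20.9 CPM. Tumor 4, with the lowest epithelial sum, came close to tumor 1 at 9.66 CPM. Before scaling, the 95% intervals of tumors 1 and 4 were 7.10 to 18.4 and 5.12 to 19.6 CPM. Set against these sums, *Ovgp1* stood at 5.04, 26.1, 7.57, 50.0, 25.8 and 10.99 CPM per 1000 epithelial CPM in tumors 1 to 6 and at 0, 18.5 and 13.6 in the clones. Tumors 1, 3 and 6 lay below clones 2 and 3, while tumors 2, 4 and 5, with epithelial sums of 193 to 325 CPM, lay above all clones. The mean was 20.9 ± 16.9 in tumors (SD, n = 6) and 10.7 ± 9.57 in clones (SD, n = 3), and the difference did not pass (log2 of the ratio of means 0.97, exact permutation test, two-sided p = 0.381). Without the shallow clone 1, where the floor of 3 counts stands at 15.4 per 1000, the log2 ratio was 0.38 (exact permutation test, two-sided p = 0.857). On the same test with all 3 clones the plain CPM gave a log2 ratio of -1.96 (exact two-sided p = 0.167). Per unit of epithelial marker RNA, these libraries gave no clear direction.

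**Figure D4:**
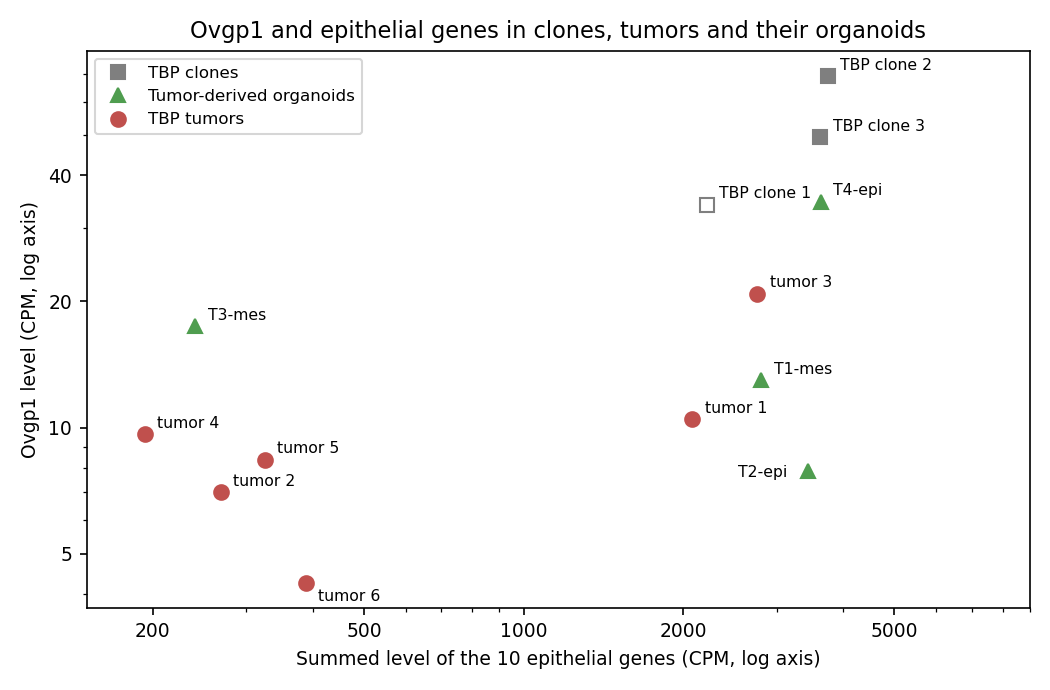
*Ovgp1* level against the summed level of the 10 epithelial genes, both in CPM on log axes, in TBP clones (squares), tumor-derived organoids (triangles) and TBP tumors (circles). Each point is 1 library and the open square is the floor of 3 counts for TBP clone 1. Tumors 1 and 3 lie to the right with 2078 and 2757 CPM of epithelial genes, and the other tumors at 193 to 388 CPM.

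Against oviduct tissue the tumors had a 9763-fold lower *Ovgp1* level (log2 -13.25, SE 0.53, adjusted p = 3.70e-07, edgeR), the largest fold among the genes that were lower. Of 10827 genes, 46.1% were called in either direction. *Pax8* was lower by a log2 difference of -3.46 (SE 0.88), *Esr1* by -2.85 (SE 0.66) and *Pgr* by -6.49 (SE 0.82). Mouse line, host and mutation differ at once here and cannot be told apart, and the level was already low in Cas9-GFP organoids.

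Of 10 other members of the chitinase-like family, 7 had a row in the table. *Chi3l4* (also *Chil4*), a secreted chitinase-like lectin of the same chromosomal region, had 0, 1.37 and 0 CPM in oviduct tissue and 51.9, 81.4 and 234 CPM in wild-type oviductal organoids (log2 8.12, SE 0.99, adjusted p = 4.45e-05), opposite in direction to *Ovgp1*. It fell in Cas9-GFP organoids to 28.3, 12.2 and 2.14 CPM (log2 -3.02, SE 0.66, adjusted p = 0.00571). Its near-identical copies could share these reads, so its values are uncertain. *Ctbs*, which breaks down chitobiose in lysosomes, rose from tissue to organoids (log2 2.97, SE 0.64, adjusted p = 0.0025) and did not pass in Cas9-GFP organoids (0.02, SE 0.49, adjusted p = 0.983). *Chid1* did not pass there either (0.14, SE 0.33, adjusted p = 0.793).

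Within 250 kb on either side of *Ovgp1*, GENCODE lists 24 other genes, of which 10 had a row in the table. In Cas9-GFP against wild-type oviductal organoids 5 of them could be tested and all 5 fell, beside 13.3% lower over all genes, with a median of -1.22. *Wdr77*, a partner of the arginine methyltransferase Prmt5, starts on the same strand and ends 3674 bases before *Ovgp1*. It fell from 130, 108 and 108 CPM to 52.8, 26.1 and 63.2 CPM (log2 -1.22, SE 0.27, adjusted p = 0.0055). *Pifo*, a gene of primary cilia, lies 9534 bases behind *Ovgp1* on the minus strand and fell from 28.3, 48.9 and 45.8 CPM to 10.4, 13.9 and 18.2 CPM (log2 -1.50, SE 0.35, adjusted p = 0.00776).

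*Rap1a*, a small GTPase, at a distance of 172375 bases, fell from 90.6, 84.0 and 86.3 CPM to 37.7, 46.9 and 40.7 CPM (log2 -1.05, SE 0.21, adjusted p = 0.00328). *Atp5f1*, a subunit of ATP synthase, fell by 0.92 (SE 0.27, adjusted p = 0.0272) on the log2 scale, and was called in 5 of 12 alternatives. *Chi3l4*, given above, was the remaining neighbour. For the 5 genes, wild-type and Cas9-GFP libraries did not overlap. All of these changes were far smaller than that of *Ovgp1*. In the fit over all 27 libraries 2 neighbours were called lower, and none was called higher in any of 12 alternatives.

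In other comparisons the neighbours did not move together with *Ovgp1*. Between the tissues, *Wdr77* rose in oviduct (log2 1.78, SE 0.18) and *Pifo* was at least 44.4-fold higher than in OSE tissue, where it had 0 reads, while *Rap1a* (0.27, SE 0.18, adjusted p = 0.235) and *Atp5f1* (0.13, SE 0.40, adjusted p = 0.809) did not pass. In TBP tumors against clones, where *Ovgp1* was lower, *Wdr77* (log2 1.69, SE 0.35), *Rap1a* (1.495, SE 0.33) and *Atp5f1* (1.004, SE 0.35) rose. *Pifo* fell in TBP clones against Cas9-GFP organoids (log2 -3.74, SE 0.75, adjusted p = 0.0397), where *Ovgp1* did not pass.

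The genes whose levels ran most like *Ovgp1* were sought among 12810 genes by Pearson's r of log2 CPM over the 27 libraries, as a description. In 12 genes r was over 0.9. The first 10 were *2300002M23Rik* (r = 0.955), *Lrrc48* (0.940), *Meig1* (0.934), *6430531B16Rik* (0.922), *Sox3* (0.917), *6820408C15Rik* (0.910), *1700007K13Rik* (0.909), *Snhg11* (0.905), *Rtn1* (0.904) and *1110004E09Rik* (0.902). The points share the large step between wild-type oviduct and the other groups, and libraries of 1 group are not independent points. By Spearman's rank correlation 2 of these 10 stayed among the first 10, namely *Lrrc48* and *6430531B16Rik*.

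*2300002M23Rik* had 424, 395 and 298 CPM in oviduct tissue, 42.9, 52.3 and 37.2 CPM in wild-type oviductal organoids and 0, 5.21 and 0 CPM in Cas9-GFP organoids. *Sox3*, an HMG-box transcription factor, had 286, 269 and 390 CPM in oviduct tissue, 164, 54.9 and 49.1 CPM in wild-type and 13.2, 36.5 and 13.9 CPM in Cas9-GFP organoids, and 0 reads in all clones, tumor-derived organoids and tumors. *Rtn1*, a reticulon of the endoplasmic reticulum, had 426, 165 and 193 CPM in wild-type and 0.942, 0 and 0 CPM in Cas9-GFP organoids. In the OSE organoid lines *2300002M23Rik* had 0 CPM in line 1 and 21.0 CPM in line 2. *Sox3* had 0 and 40.4 CPM, *Snhg11* 0 and 47.1 CPM, and *Rtn1* 0 and 71.6 CPM. *1110004E09Rik* did not share this split, with 161 and 147 reads. The genes were chosen over all 27 libraries, these lines included, so that a split like that of *Ovgp1* is partly built into the choice.

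**Figure D5:**
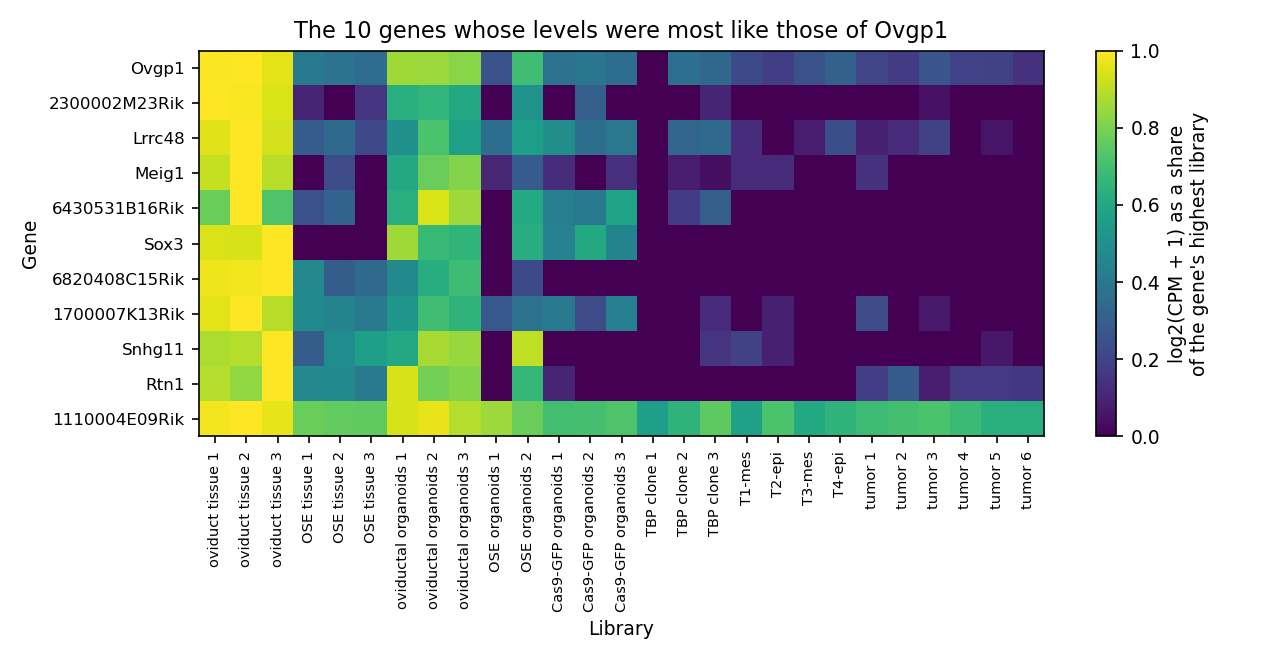
Levels of *Ovgp1* and of the 10 genes most like it (rows) in the 27 libraries (columns), as log2(CPM + 1) divided by the gene's highest library, so that 1 is its highest level. Most rows are bright in oviduct tissue and wild-type oviductal organoids and dark from TBP clones on, and brighter in OSE organoids 2 than in OSE organoids 1, except that of *1110004E09Rik*, which is bright in all libraries.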

How the data were processed

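Libraries were made by CEL-Seq2, which tags 3′ ends. Tissue and tumor RNA was extracted with Trizol and organoid RNA with RNeasy columns, so that extraction differs with these groups. With BWA, the authors placed paired reads on GRCm38 and deposited raw counts of reads that mapped once and in the direction of the transcript, without collapsing molecular identifiers, and normalized them with DESeq2 1.18.0. From the deposited counts, 1 spike-in row with 1 count was left out and 18305 genes remained.

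Each comparison used only its own groups, with edgeR 4.0.16 (R 4.3.3): TMM scaling, filterByExpr, the quasi-likelihood test and Benjamini-Hochberg adjustment over all genes tested, at 0.05. The tests were tested on simulated data with known 4-fold changes, the same number in each comparison. They found 187 of the changes between the tissues. They found 94 for oviductal against OSE organoids and 96 for tumors against clones. Only 69 were found for tumor-derived organoids against clones and 60 for mes against epi. A test not passed in the latter comparisons can therefore miss a change of that size. CPM of a single library used TMM over all 27 libraries, log2 CPM a prior count of 2. Named genes were *Ovgp1*, fixed marker and pathway lists, all annotated genes within 250 kb, the 10 genes most like it, and the most counted gene of a library. The gene and lists were chosen with earlier results of these data known. Several list symbols were matched by older names, and 8 list genes (*Spag6l*, *Amh*, *Hbb-bt*, *Hba-a2*, *Chia2*, *Chil5*, *Chil6* and *Muc16*) were not matched.

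Libraries held 82239 to 4531767 counts. For 33 replicate pairs, chi-square per gene was 2.53 or more, above sampling noise. The eGFP row held 3 counts in all, so it does not check the transgene. Alternatives were DESeq2 1.42.0, another scaling, no filter, a fit of all 27 libraries, a replicate block and leaving out each library. Their use on the counts of list genes and neighbours was added after seeing the data.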

Additional observations from a re-analysis of the deposited data

Results flagged for a closer look

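The *Ovgp1* level of tumor 3, 20.9 CPM, stood apart from the other 5 tumors by a gap of 0.627 of the range of the group, just over the critical value of 0.625 for 6 samples. Chance alone flags about 5% of groups by this measure. The difference of *Ovgp1* between origins was smaller in organoids than in tissues (-6.54 on the log2 scale, SE 1.498, adjusted p = 0.0146), and was -0.073 without OSE organoids 2.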

How the results depend on the processing

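Of 136 alternative values of *Ovgp1*, 123 kept their direction and side of the threshold. *Ovgp1* in Cas9-GFP organoids was called in 12 of 12 alternatives (-8.09 to -7.78 on the log2 scale). OSE organoids against OSE tissue passed without the filter (4.22, adjusted p = 0.0337) and in the fit of all 27 libraries (4.21, adjusted p = 0.0027), and leaving out 1 library gave -2.20 to 5.26, the turn coming without OSE organoids 2 (adjusted p = 3.12e-07). Leaving out 1 library gave 2.57 to 10.001 for oviductal against OSE organoids, -1.23 to 0.94 for mes against epi (0.94 without T4-epi, adjusted p = 0.896), -2.64 to -1.75 for tumors against clones and -7.53 to -0.073 for the difference of origins between culture and tissue, where the adjusted p was 0.0513 without OSE tissue 3. Per epithelial level, tumors against clones gave 0.97, and 0.38 without TBP clone 1 as well, an alternative chosen after seeing the data; neither passed an exact permutation test. With a replicate block the values were 10.15, -2.39, -7.89, -0.82 and, for mes against epi, -0.18, with no change of an *Ovgp1* call. Same-numbered libraries deviated together only weakly (correlations 0.016 to 0.092), but each did so best with its own number. The main tests did not read the numbers as pairs, and whether they mark a shared source was not tested. The cause of these turns and lost or gained calls was not tested.

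Calls over all genes moved more. In the order oviductal against OSE organoids, clones against Cas9-GFP, and mes against epi, the counts were 8, 63 and 110, with DESeq2 264, 115 and 498, without the filter 116, 372 and 283, and leaving out 1 library 0 to 1448, 3 to 208 and 0 to 1458. The block gave 95 and 240 for the latter pair. The fit of all 27 libraries gave 2970 in place of 4495 calls (tissues), 1114 in place of 2189 (Cas9-GFP), 251 in place of 8, 555 in place of 110, 363 in place of 0 (tumor-derived organoids against clones, 94 with DESeq2), 5251 in place of 3333 (tumors against clones) and 671 in place of 1338 (origins). Leaving out 1 library gave 1768 to 5750 for OSE organoids against tissue (3387), 1450 to 2332 for Cas9-GFP and 828 to 2325 for the origins. Depth limits the clone with 82239 counts and the tumors, where *Ovgp1* had 7 to 62 reads.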

Other observations

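Mucins, the gel and membrane glycoproteins that share secretory epithelia with *Ovgp1*, were present in few of the tumors. *Muc5b*, a gel-forming mucin, had 288 CPM in tumor 1 and 112 CPM in tumor 3, and 3.9 CPM or less in the other tumors. Wild-type oviductal organoids had 0 reads of it. Cas9-GFP organoids had 5, 6 and 7 reads, and TBP clones 1 to 3 had 0, 41 and 7. T1-mes, T2-epi, T3-mes and T4-epi had 7, 21, 0 and 36 reads. *Muc1* had 160 and 235 CPM in tumors 1 and 3 and 1.2 to 1.9 CPM in the others. *Chi3l1*, a secreted chitinase-like protein, had 43.5 CPM in tumor 1 and 148 CPM in tumor 3 against 6.1 to 13.5 CPM in the others. Tumors 1 and 3 were also those with the highest summed epithelial markers and the highest *Ovgp1* levels. In *Ovgp1*, tumor 1 (10.5 CPM) stood close to tumor 4 (9.66 CPM). No test was run on these values.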
